A study of Mus musculus with 2 samples.

Results

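10 genes of the YAP and TEAD pathway were followed in this experiment: the coactivator genes Yap1 and Wwtr1, the transcription factor genes Tead1 and Tead2, the inhibitor genes Lats2 and Amotl2, and the target genes Ctgf, Cyr61, Ankrd1 and Axl. They were selected by gene name from the 2 scanned arrays, leaving out control spots, which gave 10 gene names with 15 probes out of 27671 gene names with 41174 probes. The cells were GIF-5, a line of mouse gastric epithelial cells with both copies of Runx3 and of p53 disrupted (genotype Runx3-/-p53-/-) and grown in medium with bovine serum. Both fractions carry that genotype, and no group with intact Runx3 or p53 was analysed here. FACS with an anti-CD133 antibody split the suspension into CD133-positive cells, labelled with Cy3, and CD133-negative cells, labelled with Cy5. Both fractions were hybridised together on each of 2 Agilent 2-colour arrays, which the labels call biological replicates, so every gene has 2 ratios. The dyes were not swapped, and dye and fraction therefore cannot be told apart. Both arrays were on 1 slide with 1 scan time. The labels name no separate cultures, so p-values measure the spread between these 2 sorts or hybridisations only. All results come from a single line, and no other line or tissue was measured.

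In the Hippo pathway, the kinases encoded by Stk3 and Stk4 activate the kinases encoded by Lats1 and Lats2, which phosphorylate the coactivators YAP and TAZ (the product of Wwtr1) and keep them out of the nucleus. When the coactivators are not phosphorylated they enter the nucleus, bind TEAD transcription factors and raise transcription of genes such as Ctgf, Cyr61 and Ankrd1. Lats2 and Amotl2 are both inhibitors of YAP and TAZ and targets of them, a feedback loop. The pathway responds to cell density, attachment and tension, and in the gut epithelium it is known for its part in regeneration and tumour growth. The level of an mRNA does not show where YAP or TAZ protein is located.

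TEAD factors bind the short motif GGAATG, or CATTCC on the opposite strand. The members' promoter windows from RefSeq (build GRCm38.p6), 250 bases before to 50 bases after each gene's start, were searched for these letters on both strands, and no 2 copies overlapped. Windows were found for 8 members (Yap1, Wwtr1, Tead2, Lats2, Cyr61, Ankrd1, Amotl2 and Axl), of which 7 held the motif, every one of them except Tead2. No window was found for the target Ctgf or for Tead1. Over all genes with a window, 16.5% of 26742 genes held it. The members include genes picked as YAP and TAZ targets, so this share is set beside them as a description and not a test. Ankrd1 held 2 copies, at 210 to 205 and 123 to 118 bases before the start, against 1.36% of all 32544 windows with 2 or more. The copy lay at 141 to 136 bases before the start in Yap1, 103 to 98 in Cyr61, 65 to 60 in Amotl2 and 233 to 228 in Axl. Wwtr1 has 2 annotated starts with overlapping windows, and both windows held the same single copy. It lay 136 to 131 bases before 1 start and 170 to 165 before the other. Lats2 had a copy 5 to 10 bases after 1 of its 2 annotated starts. The 250 bases before the start are shown for the member whose log2 ratio lay nearest 0 among those tested (Yap1) and for 4 that lay lower in CD133-positive cells, so that the motif can be read beside the values. Every sequence shown holds the motif. Tead2 also lay lower in CD133-positive cells but held no motif, and its sequence is not shown. A link between the motif and the ratios was not tested. Capitals mark the motif, and each sequence runs 5′ to 3′ on the gene's strand.
Ankrd1 (chr19:36119845-36120094, minus strand): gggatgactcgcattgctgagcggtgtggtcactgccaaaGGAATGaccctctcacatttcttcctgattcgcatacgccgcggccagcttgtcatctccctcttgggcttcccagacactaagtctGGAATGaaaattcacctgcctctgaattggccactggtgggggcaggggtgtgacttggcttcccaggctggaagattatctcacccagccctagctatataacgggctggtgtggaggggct
Cyr61 (chr3:145649986-145650235, minus strand): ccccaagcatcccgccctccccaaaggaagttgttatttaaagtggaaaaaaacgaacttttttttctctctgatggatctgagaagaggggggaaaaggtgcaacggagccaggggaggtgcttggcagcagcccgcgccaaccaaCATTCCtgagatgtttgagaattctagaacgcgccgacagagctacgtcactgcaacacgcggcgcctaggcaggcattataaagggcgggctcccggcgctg
Amotl2 (chr9:102717554-102717803, plus strand): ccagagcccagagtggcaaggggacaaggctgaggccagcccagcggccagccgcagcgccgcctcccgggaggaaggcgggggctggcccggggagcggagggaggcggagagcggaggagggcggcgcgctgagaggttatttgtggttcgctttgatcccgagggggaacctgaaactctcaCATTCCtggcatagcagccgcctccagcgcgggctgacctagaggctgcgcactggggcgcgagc
Axl (chr7:25788734-25788983, minus strand): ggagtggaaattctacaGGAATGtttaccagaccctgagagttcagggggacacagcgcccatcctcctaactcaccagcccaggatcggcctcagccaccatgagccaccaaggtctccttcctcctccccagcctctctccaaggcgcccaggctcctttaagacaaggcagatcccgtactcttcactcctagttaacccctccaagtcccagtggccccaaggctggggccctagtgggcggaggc
Yap1 (chr9:8004597-8004846, minus strand): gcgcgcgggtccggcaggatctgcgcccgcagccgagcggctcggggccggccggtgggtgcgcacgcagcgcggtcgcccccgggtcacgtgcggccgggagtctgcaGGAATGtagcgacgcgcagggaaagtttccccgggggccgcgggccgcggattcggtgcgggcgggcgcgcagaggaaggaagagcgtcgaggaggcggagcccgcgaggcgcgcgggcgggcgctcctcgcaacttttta
A match is a description of the letters in the window and not a test of binding.

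The values below are probe intensities after normalisation within and between arrays, and log2 ratios normalised within each array. A positive ratio means a higher level in the CD133-positive fraction. Errors are limma's standard errors over the 2 arrays. A gene was tested if a probe was well above background in a fraction on both arrays, and it is represented by the brightest such probe. Of 15245 genes tested, 257 (1.69%) passed an adjusted p of 0.05 (limma, Benjamini-Hochberg over all genes, two-sided). 215 of these were higher in CD133-positive cells and 42 lower. This split was 482 and 9611 with median centring in place of loess, 273 and 107 without background correction, 409 and 162 with a smaller background offset, and 317 and 191 after scaling between arrays. It was 385 and 91 from the processed signals, 494 and 334 with a prior variance that follows intensity, and 32 and 0 with no filter on dim probes. Prom1, which encodes the sorted antigen, checks the labels. Its mean log2 ratio was 3.78 ± 0.14 (adjusted p = 0.00934), and it was at least 12.0-fold higher in CD133-positive cells. The bound is used because the CD133-negative signal did not clear background, and it takes the higher of the lowest signal well above background and the probe's own as that fraction's level (normalised intensities per channel, open to dye bias). No member spot was flagged as saturated. The highest raw means among the members were those of Ctgf in CD133-negative cells (Cy5), at 58951 and 60556. In CD133-positive cells (Cy3) they were 10634 and 5302. Whether signals as bright as the Cy5 ones were compressed, which would alter the Ctgf ratio, was not tested.

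Of the 10 members, 9 were tested and Tead1 was not. None of the 9 passed the adjusted threshold in limma. At an unadjusted p under 0.05, 8 of the 9 were lower in CD133-positive cells, where 16% of all genes tested were. The same 8 had a log2 ratio below 0 on both arrays, against 39.7% of all genes tested. 1 of 9, Ankrd1, was at least 2-fold lower on both arrays, against 2.11% of genes. The median log2 ratio of the 9 was -0.98 (-0.80 on array 1 and -1.30 on array 2), and over all genes tested it was -0.03 (-0.02 and -0.04). The members were chosen with earlier results of these data known, so these shares are descriptions and not tests. Because no member passed, the values below are given as measured and not as changes. In bulk samples, fewer cells of a type and less RNA per cell cannot be told apart. Whether the intensities of the fractions overlap is stated below, but the share of all genes without overlap was not counted. With 2 values in each fraction, a lack of overlap is a weak criterion.

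**Figure D1:**
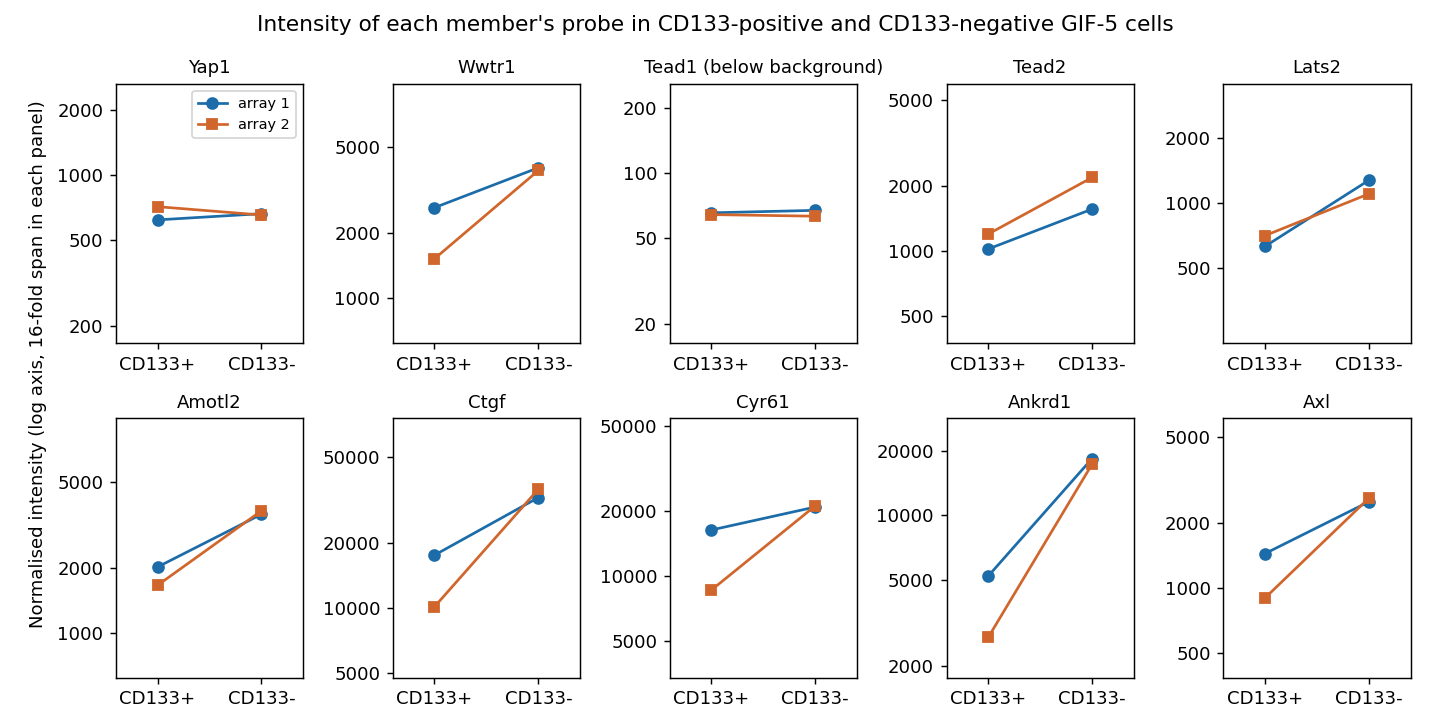
Normalised probe intensity (log axis, 16-fold span in each panel) of the 10 members in CD133-positive (left) and CD133-negative (right) cells, with a line joining the fractions of 1 array. In 8 panels both lines are lower at the CD133-positive end, the lines of Yap1 run in opposite directions, and Tead1 was not well above background.

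Yap1 encodes the coactivator YAP and had intensities of 621 and 715 in CD133-positive cells, against 664 and 654 in CD133-negative cells. The fractions overlapped, and array 1 lay slightly below 0 (log2 ratio -0.10) while array 2 lay above it (0.13). The mean was 0.02 ± 0.15, and the 95% interval ran from -0.40 to 0.43, which sets how large a difference could have gone unseen. Wwtr1, which encodes the related coactivator TAZ, had intensities of 2623 and 1519 in CD133-positive cells, against 4020 and 3905 in CD133-negative cells. The groups did not overlap, and its log2 ratios were -0.62 and -1.36, with a mean of -0.99 ± 0.23 (95% interval -1.64 to -0.33, limma adjusted p = 0.107). Its other probe gave intensities of 2081 and 1460 in CD133-positive cells, against 3887 and 4342 in CD133-negative cells, and log2 ratios of -0.90 and -1.57 (mean -1.24, adjusted p = 0.0817 over all probes). Both probes of Wwtr1 therefore lay below 0 on both arrays, while that of Yap1 did not. The difference between Yap1 and Wwtr1 was not tested. The 95% intervals given above, from 1 probe of each gene, overlap, which does not settle whether the genes differ.

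TEAD factors are the DNA-binding partners. The probe named Tead1 in the files was not well above background in either fraction on either array, with intensities of 65.5 and 64.3 in CD133-positive cells, against 67.3 and 63.2 in CD133-negative cells. It was not tested. 2 further probes carry the name 2610024B07Rik in the files, a RefSeq synonym of Tead1, and by the name rule they are not members. The brighter of them had intensities of 2800 and 5839 in CD133-positive cells, against 3905 and 3527 in CD133-negative cells, and its log2 ratios ran in opposite directions (-0.48 and 0.73, mean 0.12). The other lay near 0 on array 1 and at 0.46 on array 2 (mean 0.23). Tead2, which is expressed early in embryos, had intensities of 1019 and 1195 in CD133-positive cells, against 1561 and 2189 in CD133-negative cells. Its fractions did not overlap, with log2 ratios of -0.62 and -0.87 (mean -0.74 ± 0.15, 95% interval -1.17 to -0.32, adjusted p = 0.0897). The second probe of Tead2 read 774 and 847 in CD133-positive cells, against 1041 and 1401 in CD133-negative cells, with log2 ratios of -0.43 and -0.73 and a mean of -0.58. Both probes of Tead2 thus lay below 0 on both arrays.

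Of the inhibitors, Lats2 encodes the kinase that phosphorylates YAP and TAZ. Its intensities were 629 and 705 in CD133-positive cells, against 1275 and 1102 in CD133-negative cells, and the fractions did not overlap. Log2 ratios were -1.02 and -0.65, with a mean of -0.83 ± 0.17 (95% interval -1.30 to -0.37, adjusted p = 0.0878). A second probe of Lats2 read 337 and 371 in CD133-positive cells, against 679 and 580 in CD133-negative cells (log2 ratios -1.01 and -0.65). Another read 130 and 126 in CD133-positive cells, against 189 and 181 in CD133-negative cells (log2 ratios -0.54 and -0.52). These 3 probes lay on the same side without overlap. The last probe, to a cDNA the files describe as alternatively spliced, read 109 and 143 in CD133-positive cells, against 135 and 179 in CD133-negative cells. Those intensities overlap between fractions, although its log2 ratio was below 0 on both arrays (-0.31 and -0.32, adjusted p = 0.225 over all probes). Amotl2, which encodes an angiomotin that holds YAP outside the nucleus, had intensities of 2016 and 1658 in CD133-positive cells, against 3543 and 3677 in CD133-negative cells. The fractions did not overlap. The log2 ratios were -0.81 and -1.15, with a mean of -0.98 ± 0.16 (95% interval -1.43 to -0.53, adjusted p = 0.0768), a level 1.97-fold lower in CD133-positive cells.

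The targets included the brightest probes of the set. Ankrd1, a transcription cofactor with ankyrin repeats and a standard readout of YAP activity, had intensities of 5226 and 2712 in CD133-positive cells, against 18378 and 17298 in CD133-negative cells. The groups stood far apart, and its log2 ratios of -1.81 and -2.67 averaged -2.24 ± 0.26 (95% interval -2.97 to -1.52), 4.74-fold lower in CD133-positive cells. It ranked 43rd from the lowest of the 15245 genes, and limma gave an adjusted p of 0.0556. This fell below 0.05 in 6 of the 10 alternative settings (range 0.00723 to 0.122). The lowest of these values came from median centring, under which 10093 of 15245 genes passed. The processed signals and the deposited value table hold the same ratios, and each gave 0.0592. Ctgf, a secreted matrix protein of the CCN family, had intensities of 17571 and 10113 in CD133-positive cells, against 32529 and 35576 in CD133-negative cells. Its log2 ratios were -0.89 and -1.81, with a mean of -1.35 ± 0.27 (95% interval -2.11 to -0.59, adjusted p = 0.0884), 2.55-fold lower in CD133-positive cells.

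Axl encodes a receptor tyrosine kinase for Gas6. Its intensities were 1445 and 899 in CD133-positive cells, against 2515 and 2615 in CD133-negative cells, and the fractions did not overlap. The log2 ratios of -0.80 and -1.54 averaged -1.17 ± 0.23 (95% interval -1.82 to -0.52, adjusted p = 0.0874). Cyr61, the CCN-family relative of Ctgf, had intensities of 16405 and 8624 in CD133-positive cells, against 20976 and 21225 in CD133-negative cells. The fractions did not overlap, and the log2 ratios were -0.35 and -1.30, with a mean of -0.83 ± 0.28 (95% interval -1.60 to -0.05, adjusted p = 0.165). The 4 targets therefore lay in the same direction on both arrays, with mean log2 ratios between -2.24 and -0.83.

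**Figure D2:**
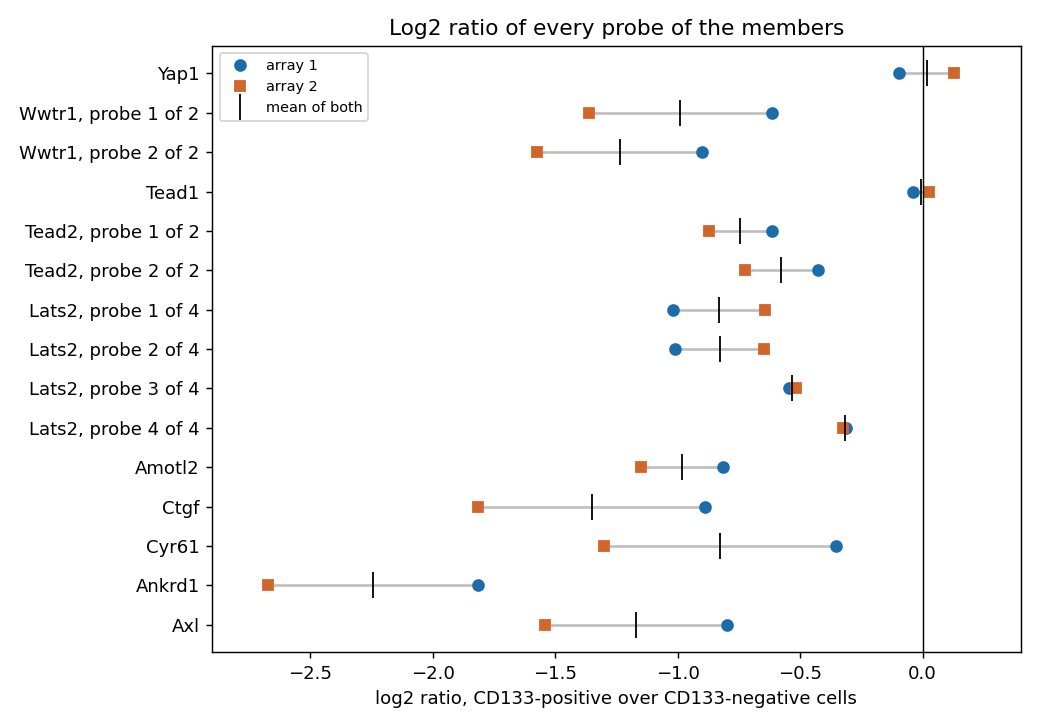
Log2 ratio (CD133-positive over CD133-negative cells) of all 15 member probes on array 1 (circles) and array 2 (squares), with the mean as a bar and probe 1 as the probe that represents its gene. 13 of the 14 tested probes lie below 0 on both arrays, and the exception is Yap1.

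The size of the difference varied between the arrays. The log2 ratio on array 2 minus that on array 1 was -0.94 for Cyr61, -0.93 for Ctgf, -0.86 for Ankrd1, -0.75 for Wwtr1 and -0.74 for Axl, while its median over all genes tested was -0.06 (quartiles -0.30 and 0.19). For the probes that represent these 5 genes, the intensity in CD133-positive cells on array 1 was 1.61 to 1.93 times that on array 2. In CD133-negative cells the same 5 probes had ratios between arrays of 0.914 to 1.06. The other probe of Wwtr1 had ratios of array 1 over array 2 of 1.43 in CD133-positive and 0.895 in CD133-negative cells. The log2 ratio on array 2 minus that on array 1 was -0.34 for Amotl2, -0.26 for Tead2, 0.22 for Yap1 and 0.37 for Lats2. Leaving out either array moves the values of Cyr61, Ctgf, Wwtr1 and Axl to those of the other array given above. With 2 arrays, these array-to-array values have no test.

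**Figure D3:**
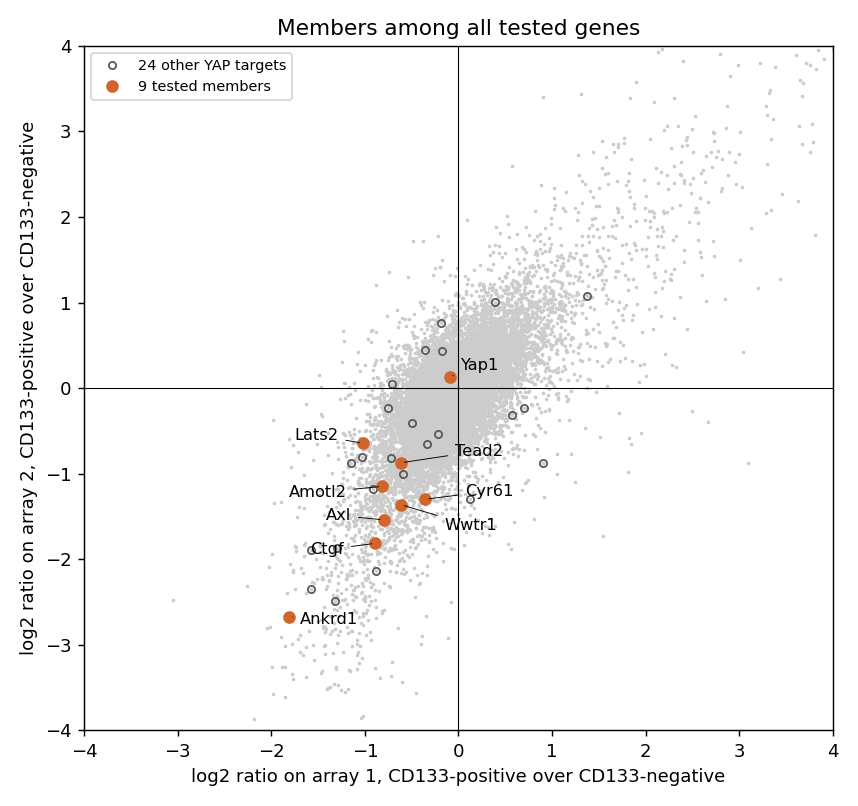
Log2 ratio (CD133-positive over CD133-negative) on array 1 (x axis) and array 2 (y axis) for all genes tested (grey), the other YAP targets (open circles) and the 9 tested members (filled). 8 members lie in the lower left, Yap1 lies near the origin, and 48 genes fall outside the plotted range of -4 to 4.

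Of the other Hippo pathway genes, the median log2 ratio was -0.27, where it was -0.98 over the tested members and -0.03 over all genes tested. All 36 further genes (kinases, scaffolds, upstream regulators and TEAD partners) were on the array, and 33 were tested, leaving out Fat4, Vgll1 and Vgll2, which were not well above background. None passed the adjusted threshold. At an unadjusted p under 0.05, 10 of the 33 were lower and 2 higher in CD133-positive cells, against 16% and 11.9% of all genes tested. Of the 33, 18 lay below 0 on both arrays and 4 above, against 39.7% and 32.6% of all genes tested, and 11 lay on opposite sides. The 6 with the largest mean ratio in a shared direction were all below 0. Stk3, the kinase upstream of Lats2, had log2 ratios of -0.47 and -0.98 (mean -0.73 ± 0.19). Map4k4, a parallel kinase that also activates Lats1 and Lats2, had -0.89 and -0.48 (mean -0.68 ± 0.17). Frmd6, a scaffold, had a mean of -0.61 ± 0.15, as did Vgll4, a competitor of YAP for TEAD binding. Taok3 averaged -0.57 ± 0.17 and Amotl1, a paralog of Amotl2, -0.55 ± 0.14. Adjusted p for these 6 lay between 0.109 and 0.138. Lats1, the paralog of Lats2, averaged 0.00 ± 0.16, and its arrays ran in opposite directions (-0.17 and 0.17). So did those of Tead4 (-0.62 and 0.27, mean -0.18), while Tead3 had -0.03 and -0.36 (mean -0.20). These 3 were chosen for mention as paralogs of members after their values were seen.

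The 24 other genes listed as YAP or TAZ targets in human signatures were all tested, with a median log2 ratio of -0.49. Only Asap1, a GTPase-activating protein of the Arf family, passed the adjusted threshold. It was lower in CD133-positive than in CD133-negative cells, and with no filter on dim probes it no longer passed. It had log2 ratios of -1.58 and -1.89 and a mean of -1.74 ± 0.16 (adjusted p = 0.0385). At an unadjusted p under 0.05, 12 of the 24 were lower and 2 higher, against 16% and 11.9% of all genes tested. 14 lay below 0 on both arrays and 2 above, against 39.7% and 32.6%, and 8 lay on opposite sides. 4 were at least 2-fold lower on both arrays, among them Thbs1, Asap1 and Myof, and Edn1 was at least 2-fold higher, against 2.11% and 2.5% of all genes tested. Thbs1, thrombospondin, averaged -1.96 ± 0.24 (adjusted p = 0.0601). Myof, which encodes myoferlin, averaged -1.58 ± 0.20, Nuak2, a kinase related to AMPK, -1.51 ± 0.35, and Crim1, -1.04 ± 0.15. Edn1, the vasoconstrictor endothelin, ran the other way, with log2 ratios of 1.38 and 1.07 (mean 1.23 ± 0.16, adjusted p = 0.0630). Ajuba and Ptpn14 are in both lists. Both lists were chosen with earlier results of these data known, so their shares are descriptions and not tests.

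**Figure D4:**
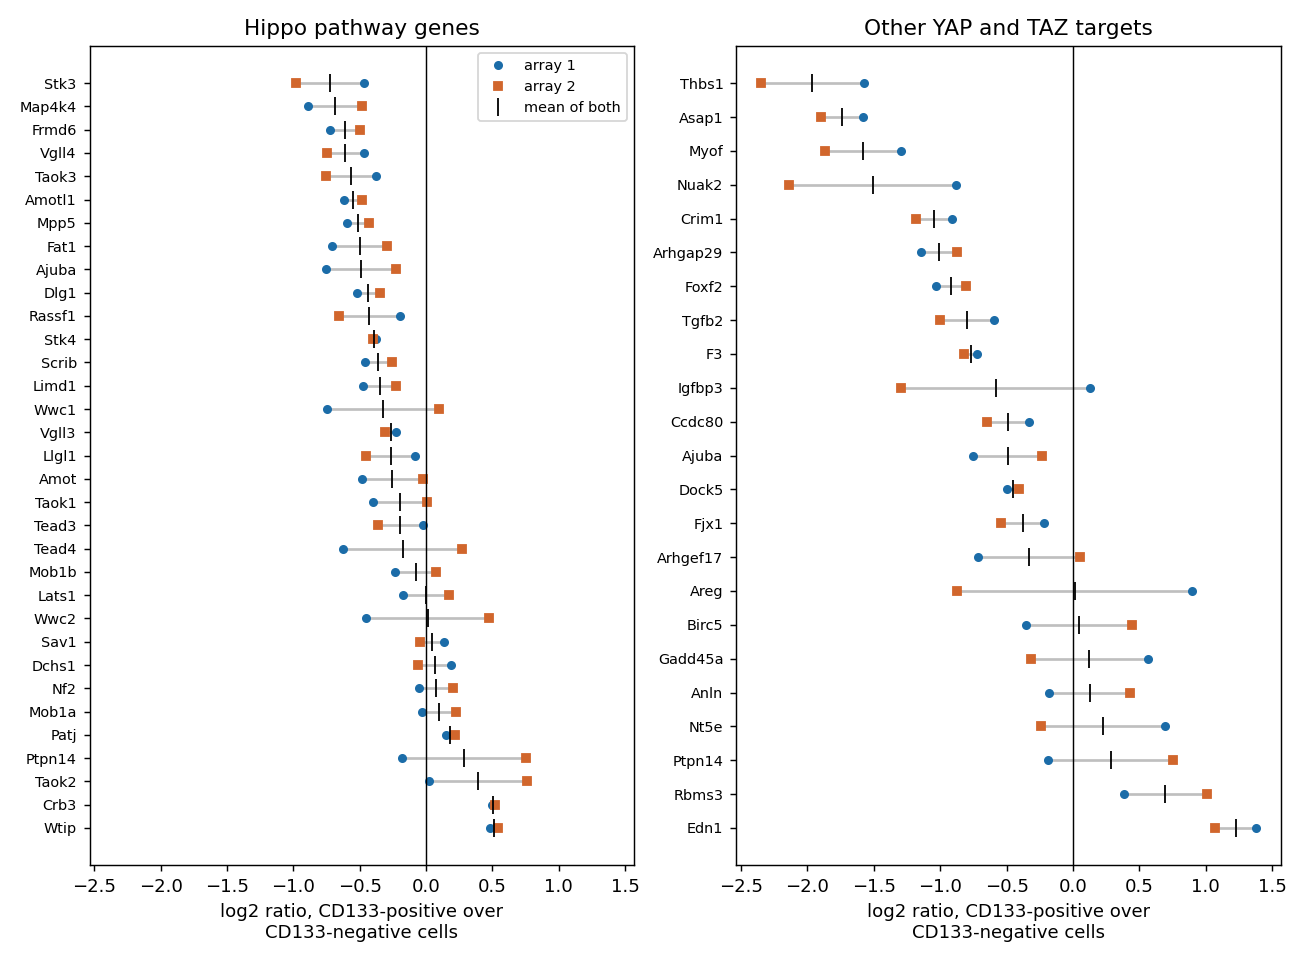
Log2 ratio (CD133-positive over CD133-negative cells) on array 1 (circles) and array 2 (squares) of the tested Hippo pathway genes (left) and of 23 other targets (right), ordered by the mean (bars). Hippo means lie between -0.73 and 0.51, and target means between -1.96 and 1.23.

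Markers of cell types were read beside these values. Of 8 epithelial markers 5 were tested and none passed. The keratins Krt8, Krt18 and Krt19 had mean log2 ratios of -0.78, -0.54 and -0.79, while Cdh1, E-cadherin, and Cldn7 had 0.42 and 0.38. Epcam, Cldn4 and Esrp1 were not well above background on enough arrays to be tested, so the labelled epithelial identity rests here on keratins and Cdh1. Of the fibroblast and muscle markers, 3 of 6 were tested, with Col1a1 at -1.25 (adjusted p = 0.0664), Acta2 at 0.13 and Des at 0.27, and Pdgfra, Pdgfrb and Dcn not well above background. Of the blood markers, 3 of 6 were tested and none passed, with Cd3e at -0.06 and Cd68 at 0.24, and Ptprc, Itgam and Adgre1 were not well above background. Of the 6 endothelial markers only Cdh5 was tested, and it was at least 5.81-fold higher in CD133-positive cells (adjusted p = 0.0422), with Pecam1, Kdr, Tek, Emcn and Tie1 not well above background. The part of these markers in the members' values was not tested.

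**Figure D5:**
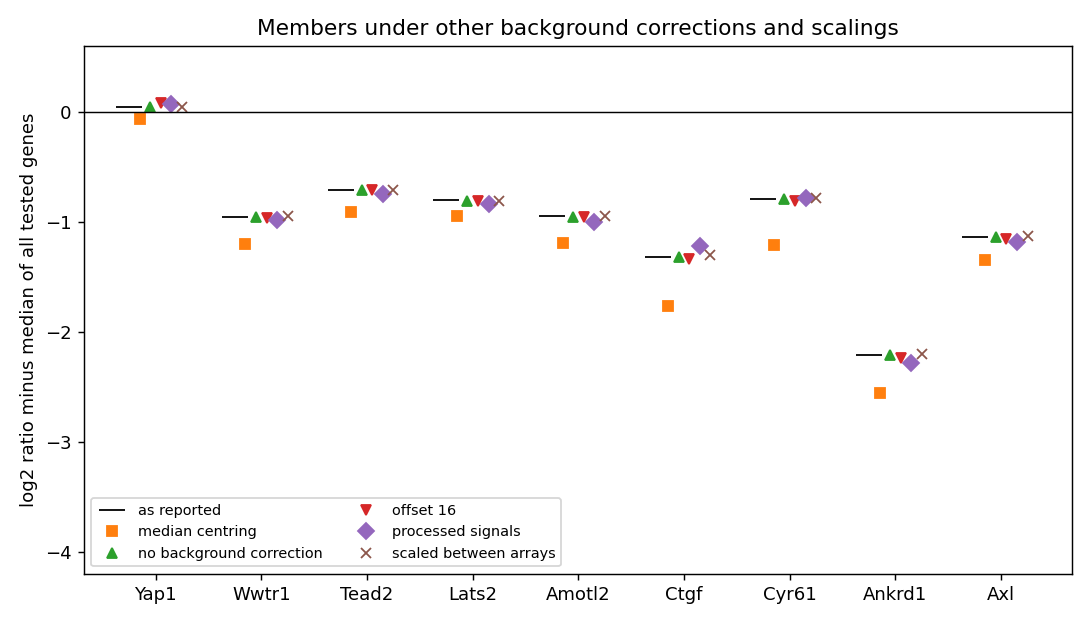
Log2 ratio of the 9 tested members minus the median of all tested genes, under the reported normalisation and 5 other background corrections or scalings. 8 members stay below 0 in each setting, and Yap1 stays within -0.07 and 0.08 of 0.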

How the data were processed

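Per the file headers, spots on both arrays were quantified with Agilent Feature Extraction 9.5.3.1. The deposited values used were spot intensity per channel and its local background. The authors also deposited processed intensities, a log10 ratio of Cy5 over Cy3, and a p-value of the scanner's error model, which was not used. From the spot intensities, background was corrected with normexp (offset 50) in limma 3.58.1 under R 4.3.3, ratios were normalised by loess within each array with control spots given no weight, expressed as log2 with the CD133-positive channel on top, and averaged over spots of a probe. Intensities per fraction were also scaled between arrays (Aquantile). Probes with a spot flagged as non-uniform or as an outlier, in either channel on either array, were left out of the tests. Flagged spots stayed in the background correction and normalisation. 23130 probes and 15245 genes were tested with lmFit and eBayes on 2 arrays (1 residual degree of freedom), two-sided, p-values being adjusted by Benjamini-Hochberg across the genes tested, with a threshold of 0.05. Probes were named by accession (22951), symbol (6659) or synonym (3109) in RefSeq tables (GRCm38.p6), and 8455 kept the file's name. The number of arrays limits the precision. Spots well above background numbered 24112 and 23911 in CD133-positive and 25636 and 25072 in CD133-negative channels. The scripts were tested on simulated data. The members and the gene lists were chosen with earlier results of these data known. Named are every member, each list gene that passed, and up to 6 further genes of each list with the largest mean ratio in the same direction on both arrays. Values of 1 such target and of 1 marker are not reported here, although the counts and medians include them. Background correction, scaling, dim-probe filter, prior variance and probe choice were varied.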

Additional observations from a re-analysis of the deposited data

How the results depend on the processing

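Over the 10 alternatives, 8 members stayed below 0 in each, and the median log2 ratio of the members lay between -1.95 and -0.98 (between -1.30 and -0.80 with either array left out, a value with no test). Not all of these could move the ratios. The changes of filter and of prior variance left every member's ratio as it was, and the value table repeats the processed signals. Averaging probes could move only Wwtr1, Tead2 and Lats2, the members with several tested probes. Median centring in place of loess moved the median of all genes to -0.74 and called 10093 genes, 9 members, 27 Hippo genes and 19 other targets. Under it Yap1 turned to -0.81, or -0.07 relative to that median. Yap1 on a single array lay between -0.10 and 0.13. All genes called numbered 571 with an offset of 16, 476 from the processed signals or the deposited value table, 508 after scaling between arrays, 828 when the prior variance followed intensity and 32 with no filter on dim probes. These counts are of 15245 genes tested, except that 27618 were tested with no filter. Without background correction 380 of 15245 genes were called, and with a filter on both channels 298 of 13759. Averaging the tested probes of each gene called 253 of 15245 genes and no member. Of the 9 members, 1 (Ankrd1) was called without background correction, with the offset of 16, after scaling and with a filter on both channels. When the prior variance followed intensity (the trend), 2 members were called (Ankrd1 and Amotl2). Other targets called were 3 without background correction, 4 with the offset of 16, 2 from processed signals or the value table, 3 after scaling, 2 with the filter on both channels, 7 with the trend and 0 with no filter. The cause was not tested. With 2 arrays and 1 dye orientation, a dye effect on a probe cannot be told apart from the fraction. Each ratio is taken within an array, so the test is already paired by array.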

Other observations

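Among the other listed targets, Areg, which encodes the EGFR ligand amphiregulin, had log2 ratios of 0.90 and -0.87 on the 2 arrays, and Igfbp3 had 0.13 and -1.29. Nt5e had 0.70 and -0.24, and Gadd45a 0.57 and -0.32. These 4 lay above 0 on array 1 and below it on array 2, and they were chosen for mention after their values were seen. Birc5, Anln, Ptpn14 and Arhgef17 ran the other way, at -0.36, -0.18, -0.19 and -0.71 on array 1 and 0.44, 0.43, 0.76 and 0.05 on array 2.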
